A study of Mus musculus with 12 samples.

Results

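Contactins and contactin-associated proteins are cell surface molecules of neurons and glia, and 10 of their genes were described here: the 5 contactins Cntn1, Cntn3, Cntn4, Cntn5 and Cntn6, and the 5 contactin-associated genes Cntnap2, Cntnap4, Cntnap5a, Cntnap5b and Cntnap5c. They were taken by gene symbol, and all 10 were found among the 55336 genes listed in the count matrices. Contactins are held in the membrane by a lipid anchor and carry immunoglobulin and fibronectin domains, while contactin-associated proteins cross the membrane and belong to the neurexin superfamily. Members of both families pair on axons, where such complexes join axon to glia beside the node of Ranvier and gather voltage-gated potassium channels next to that junction. Other members guide axons and tune synapses of the cortex.

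The data were single-nucleus RNA counts of the cortex of 12 mice at postnatal day 21, with 6 WT and 6 MYT1L Het animals and 3 males and 3 females in each genotype. Het animals carry 1 copy of a frameshift allele, S710fsX, of Myt1l, which encodes a transcription factor of neurons, on a C57BL/6 background. As part of a Calling Cards experiment, which records where proteins bind DNA, the study had injected the ventricles of pups of both genotypes with a mix of AAV9 vectors, one for the transposase hyPB and one for H2b-tdT-SRT, a transposon with a nuclear tdTomato reporter, so the controls share that treatment. The cortices were flash frozen. Some nuclei carried striatal or hippocampal marker genes, and the region they came from was not tested. The animals were separate, so the spread given here is between animals.

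Of 78743 barcodes, 33116 nuclei passed the limits on UMIs (unique molecular identifiers), genes and mitochondrial share and the removal of doublets, with 14344 from WT and 18772 from Het, and the animals shared 0 barcodes. Each animal kept between 1551 and 4414 nuclei, with 5059339 to 14016468 UMIs. Nuclei were given a class from the UMIs of fixed marker genes alone, none of which is a contactin or contactin-associated gene. This gave 18691 excitatory-like and 6506 inhibitory-like nuclei and 15 narrower classes that held enough animals. Of these, 6 were excitatory, 5 inhibitory and 4 chosen on glial markers. Most neurons fell outside the narrower classes: 10055 excitatory-like and 3476 inhibitory-like nuclei were given none of them. A further 5109 nuclei were given no class at all. With no ceiling at 6000 UMIs and 3000 genes, 74784 nuclei were kept in place of 33116. Of these, 51582 were excitatory-like (18691 under the ceilings), 11540 inhibitory-like (6506) and 2001 oligodendrocyte-like (1686). L2/3 IT-like nuclei numbered 9966 (2432) and those of the class chosen on microglial markers 839 (333). Levels and class orders thus describe the nuclei with fewer UMIs and genes, and the part removed differed between classes. Some genes outside the marker lists were read as a check. Lhx6, a transcription factor of Pvalb and Sst interneurons, was at 72.7 CPM (UMI counts scaled to the same total in every summed sample) in Pvalb-like and 72.8 in Sst-like nuclei, and at 1.33 and 2.78 in Vip-like and Lamp5-like nuclei. Mbp, a myelin gene, was at 6915 CPM in oligodendrocyte-like nuclei. Other genes were shared between classes. Syt6 was at 156 CPM in L6 CT-like but at 210 in striatal projection-like nuclei, and Adarb2 was at 16050 in Vip-like, 8062 in Lamp5-like, 2081 in OPC-like and 1503 in Sst-like nuclei. Vip-like nuclei held a median of 6 UMIs of their own markers and 6 of another list, Pvalb-like nuclei 7 and 6, and Lamp5-like nuclei 6 and 5. The class chosen on microglial markers went against its label, because 5 neuronal transcripts reached 57.5% to 81.7% of their level in neurons there. It is called the microglial-marker class and is not read as microglia. Myt1l itself was at 830 to 946 CPM in WT nuclei (median 893) and at 927 to 1008 in Het nuclei (median 993), so the genotypes overlapped (log2 fold change 0.14 ± 0.05 SE, edgeR adjusted p = 0.675). Its log2 fold change was 0.16 in excitatory-like and 0.21 in inhibitory-like nuclei. In L6 CT-like nuclei Myt1l was at 1107 to 1300 CPM in WT and at 1337 to 1556 in Het, which do not overlap, and the difference of 0.23 ± 0.06 (log2, SE) was not called (edgeR adjusted p = 0.0641). Myt1l was thus not lower in Het in these 4 comparisons, and the counts do not tell the alleles apart, so they do not check the genotype labels.

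All 10 genes are long. They span 291 kb (Cntn1) to 2245 kb (Cntnap2) of the mm10 genome, and exons make up only 0.364% to 3.24% of each span. Cntnap2 lies at chr6:45059357-47304213 on the plus strand. Cntn3, Cntn6 and Cntn4 lie on the same chromosome, at chr6:102162655-102573101 (minus strand), chr6:104492790-104863406 and chr6:105677660-106699310 (both plus strand). Cntn5 is at chr9:9660891-10904775 on the minus strand, Cntn1 at chr15:92051165-92341967 and Cntnap4 at chr8:112570043-112882717, both on the plus strand. Cntnap5b (chr1:99772765-100485942), Cntnap5a (chr1:115684756-116587323) and Cntnap5c (chr17:57769570-58410355) are all on the plus strand.

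The Cntnap5 genes are close copies, so whether reads can tell them apart bears on each of their values. Their coding sequences, 3876 to 3915 bases long, were identical at 89.8% to 90.3% of aligned bases, against 62.9% to 65.6% between any other pair of contactin-associated genes. The longest stretch without a difference between 2 of their transcripts was 91 bases, between Cntnap5a and Cntnap5b. The most alike 60 coding bases that start at a codon and lie in 1 exon in all 3 genes follow, read from GENCODE M21 transcripts (GRCm38, which is mm10), with the 2 positions that differ among the genes in capitals. They are coding bases 778 to 837 of each gene.
Cntnap5a, chr1:116101595-116101654, plus strand: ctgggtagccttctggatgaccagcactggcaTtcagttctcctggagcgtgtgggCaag
Cntnap5b, chr1:100076074-100076133, plus strand: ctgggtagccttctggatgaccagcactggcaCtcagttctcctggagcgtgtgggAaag
Cntnap5c, chr17:58042471-58042530, plus strand: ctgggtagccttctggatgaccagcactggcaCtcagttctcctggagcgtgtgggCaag
A read from such a stretch can fit more than 1 of the genes. Entries of the matrices that are not whole numbers are read here as UMIs divided among genes, a step that the sources used here do not describe. In the nuclei kept, 8.26% of Cntnap5a UMIs, 6.47% of Cntnap5b UMIs and 8.08% of Cntnap5c UMIs stood in entries that were not whole numbers. The share was highest for Cntnap2, at 17.8%, followed by Cntn5 at 12.7% and Cntn4 at 8.99%, and lowest for Cntn1, at 1.77%. The Cntnap5 genes thus did not stand out by this share, and where these UMIs came from was not tested.

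Cntnap2, Cntnap4, Cntnap5c, Cntn5 and Cntn6 were on average more than 2-fold higher in inhibitory-like than in excitatory-like nuclei, and Cntnap5a and Cntnap5b were higher by less. All 7 were higher in each of the 12 animals. Cntn4 was slightly higher, Cntn1 slightly lower, and Cntn3 did not pass the test. In all, 9 of the 10 genes differed between the broad classes, 8 of them upwards in inhibitory-like nuclei and 1 downwards. Among the 8233 genes with a mean of at least 10 CPM, 62.9% passed the same test, with 34.5% higher in inhibitory-like and 28.4% higher in excitatory-like nuclei. The test was an exact paired permutation test over the 12 animals (two-sided, adjusted over all 8233 genes), and the smallest p it can give is 0.000488.

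Cntnap2, whose protein gathers potassium channels on axons, was at 1539 to 2466 CPM in the excitatory-like nuclei of the animals (median 1866.5) and at 5233 to 8339 in the inhibitory-like nuclei (median 6736). The ranges do not touch. Its log2 difference was 1.83 ± 0.19 (SD, n = 12), or 3.55-fold (exact permutation p = 0.000488, adjusted p = 0.00138). The annotation places 24 other genes inside the span of Cntnap2 on its own strand, and their summed level moved alike, from 137 CPM in excitatory-like to 485 in inhibitory-like nuclei. How the counting shared reads between Cntnap2 and those genes was not tested.

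Cntnap5c differed most. It was at 47.0 to 102 CPM in excitatory-like nuclei (median 78.0) and at 388 to 728 in inhibitory-like nuclei (median 502), a log2 difference of 2.69 ± 0.33 (SD, n = 12), or 6.45-fold, with the same exact permutation p of 0.000488. Its relatives differed less. Cntnap5a was at 287 to 531 CPM (median 346) against 529 to 936 (median 744), so the ranges overlapped at their ends, and the log2 difference was 0.92 ± 0.33 (SD, n = 12). Cntnap5b was the lowest of the group in inhibitory-like nuclei per length and had a log2 difference of 0.60 ± 0.21 (SD, n = 12). Both were higher in inhibitory-like nuclei in 12 of 12 animals (exact permutation p = 0.000488 for each).

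Cntnap4, which is known for its role in transmission from interneurons, was at 120 to 190 CPM in excitatory-like and at 379 to 542 in inhibitory-like nuclei (log2 difference 1.49 ± 0.29 SD, n = 12, exact permutation p = 0.000488). The ranges did not overlap. Among the contactins, Cntn5 had a log2 difference of 1.11 ± 0.12 (SD, n = 12) and Cntn6 was 2.64-fold higher, and both were higher in inhibitory-like nuclei in 12 of 12 animals. Cntn4, a contactin that binds the amyloid precursor protein, differed by only 0.32 ± 0.32 (SD, n = 12) and was higher in 10 of 12 animals (exact permutation p = 0.00684, adjusted p = 0.013). Cntn1, the contactin of the axon-glia junction, went the other way by -0.10 ± 0.10 (SD, n = 12, exact permutation p = 0.00488, adjusted p = 0.00963), and was higher in inhibitory-like nuclei in 2 of 12 animals. The median of all genes tested was 0.03. Cntn3 was at 351 to 521 CPM in excitatory-like and at 342 to 495 in inhibitory-like nuclei, a log2 difference of -0.06 ± 0.20 (SD, n = 12) that did not pass (exact permutation p = 0.311, adjusted p = 0.374).

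**Figure D1:**
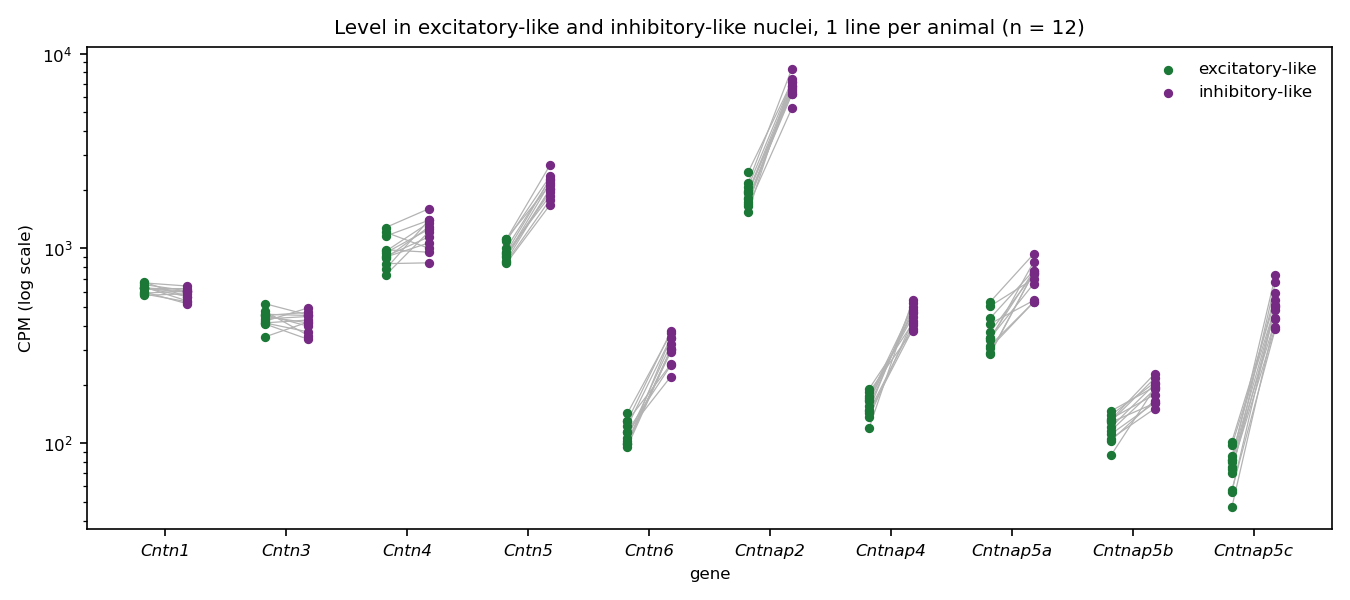
CPM on a log scale of each of the 10 genes in excitatory-like (green) and inhibitory-like (purple) nuclei, with 1 line for each of the 12 animals. The lines of Cntnap2, Cntnap4, Cntnap5c, Cntn5 and Cntn6 rise in every animal, while those of Cntn1 and Cntn3 are nearly flat.

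Because longer genes give more nuclear reads, levels were compared between genes per 100 kb of gene span. In excitatory-like nuclei Cntn1 had the highest such level, 214 CPM per 100 kb, followed by Cntn3 at 107, Cntn4 at 94.5, Cntnap2 at 84.5 and Cntn5 at 77.3. Cntnap5c had the lowest, 11.8 CPM per 100 kb. In inhibitory-like nuclei Cntnap2 led at 300 CPM per 100 kb (299.9), ahead of Cntn1 at 199.9, Cntn5 at 168 and Cntnap4 at 145. Cntnap5b, at 26.1 CPM per 100 kb, was the lowest there.

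The 10 genes were ordered over the 15 narrower classes, and Pvalb-like nuclei led 4 of them and L5 NP-like nuclei 3. For 8 of the 10 genes the leading class stood above the next one. These were Cntn4 in Vip-like nuclei, Cntn5 in Lamp5-like nuclei, and Cntnap4, Cntnap5c and Cntnap5a in Pvalb-like nuclei, as well as Cntn1 in OPC-like nuclei, those of oligodendrocyte precursors, Cntnap2 in Pvalb-like nuclei and Cntn3 in L5 NP-like nuclei. The leading classes of Cntn6 and Cntnap5b did not differ from the next ones beyond their spread. Neighbours in each order were compared within animals by the exact paired permutation test, adjusted over all 140 neighbouring pairs of the 10 genes. Each order was set by the mean CPM of the same animals, so the pairs were chosen on the values tested. Their p-values thus describe the size of a step against its spread and are not separate support for the order. Of these pairs, 21 passed. Such steps were not tested for all genes, so neither count has a share over all genes beside it. Classes further apart in an order were not compared, so steps that did not pass do not make distant classes alike. Without the microglial-marker class, a check chosen after seeing the data, 26 pairs passed. When nuclei with more UMIs or genes were let in, the leading steps of Cntn3 and Cntnap5a no longer passed, and under a stricter marker rule those of Cntn3, Cntnap2 and Cntnap5a did not. For 9 of the 10 genes the highest class was the same in WT and in Het animals, Cntnap5b being the exception.

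**Figure D2:**
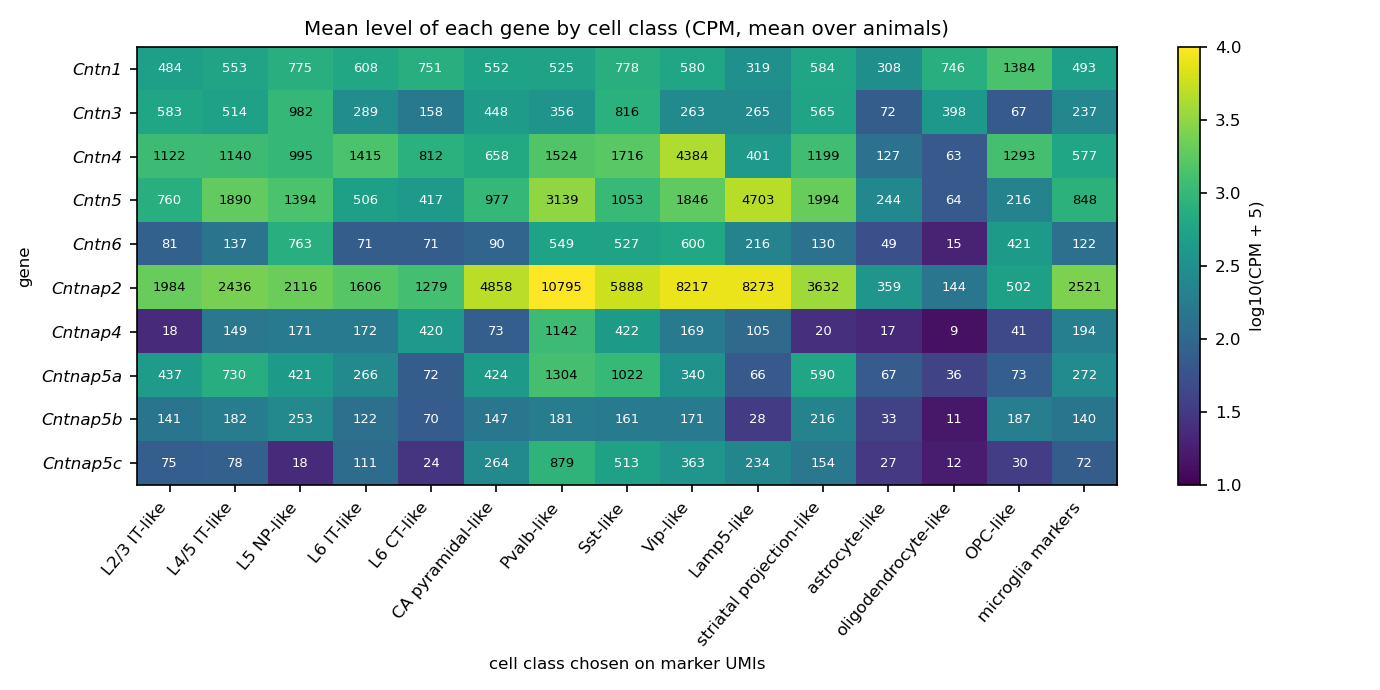
Mean CPM over animals of each gene (rows) in each of the 15 classes (columns), with the colour on a log10(CPM + 5) scale and the mean printed in each cell. Cntnap2 exceeds 5800 CPM in the Pvalb-, Sst-, Vip- and Lamp5-like columns, and Cntn4 and Cntn5 have their highest values in the Vip-like (4384) and Lamp5-like (4703) columns.

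Cntn4 was at 3079 to 5951 CPM in the Vip-like nuclei of the animals (median 4426), while the next class, Sst-like nuclei, was at 801 to 2331 (median 1829). Vip-like nuclei were the highest class in 12 of 12 animals, and the within-animal log2 difference from Sst-like nuclei was 1.37 ± 0.36 (SD, n = 12, exact permutation adjusted p = 0.00977). From Sst-like nuclei down to the microglial-marker class, Cntn4 fell in steps that did not pass the test, through Pvalb-like (1524 CPM), L6 IT-like (1415), OPC-like (1293), L4/5 IT-like (1140) and L6 CT-like (812) nuclei. Lamp5-like nuclei, another interneuron class, had only 401 ± 145 CPM (SD, n = 12), the lowest of the 11 neuronal classes.

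Cntn5 was at 3685 to 5522 CPM in Lamp5-like nuclei (median 4707) and at 2264 to 4249 in Pvalb-like nuclei (median 3093), and Lamp5-like nuclei were highest in 11 of 12 animals (log2 difference 0.59 ± 0.37 SD, n = 12, exact permutation adjusted p = 0.0124). Pvalb-like nuclei stood above striatal projection-like nuclei in turn (log2 difference 0.67 ± 0.53 SD, n = 12, exact permutation adjusted p = 0.0322). Striatal projection-like (1994 CPM), L4/5 IT-like (1890) and Vip-like nuclei (1846) did not differ from each other as neighbours. No later step between neighbours in the order of Cntn5 passed. Classes further apart were not compared, although L5 NP-like nuclei were at 885 to 1833 CPM and L6 CT-like nuclei at 290 to 618. Sst-like nuclei were at 1053 ± 259 CPM (SD, n = 12), and L6 CT-like nuclei had the lowest neuronal level, 417 ± 95.2 (SD, n = 12).

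Cntn6 was highest in L5 NP-like nuclei, at 424 to 1297 CPM (median 772), and these near-projecting nuclei stood apart from the other excitatory classes, whose means lay between 71.0 and 137 CPM. The next 4 classes followed without a step that passed: Vip-like (599.9 CPM), Pvalb-like (549), Sst-like (527) and OPC-like nuclei (421). The step from OPC-like to Lamp5-like nuclei (216 CPM) passed (log2 difference 1.04 ± 0.52 SD, n = 12, exact permutation adjusted p = 0.0124). L5 NP-like nuclei were the highest class in 8 of 12 animals.

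Cntn3 shared the lead of L5 NP-like nuclei, at 797 to 1289 CPM (median 969). Sst-like nuclei came next at 608 to 979 (median 826), a log2 difference of 0.27 ± 0.28 (SD, n = 12, exact permutation adjusted p = 0.0468), and were themselves above L2/3 IT-like nuclei at 428 to 646 CPM (log2 difference 0.48 ± 0.24 SD, n = 12, exact permutation adjusted p = 0.00977). The 2 deep-layer excitatory classes other than L5 NP were low for this gene, with 289 ± 77.7 CPM (SD, n = 9) in L6 IT-like and 158 ± 22.0 (SD, n = 12) in L6 CT-like nuclei.

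Cntn1 varied least among neurons. Its neuronal means ran from 319 CPM in Lamp5-like to 778 in Sst-like nuclei, followed by L5 NP-like (775) and L6 CT-like nuclei (751), and no step between these neighbours passed. Lamp5-like nuclei lay below L2/3 IT-like nuclei by 0.62 ± 0.29 on the log2 scale (SD, n = 12, exact permutation adjusted p = 0.00977).

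Cntnap2 reached 9685 to 11975 CPM in Pvalb-like nuclei (median 10792), the highest class in 10 of 12 animals. Lamp5-like and Vip-like nuclei followed at 8273 ± 1621 and 8217 ± 1695 (SD, n = 12), and Pvalb-like nuclei stood above Lamp5-like nuclei by 0.41 ± 0.32 (log2, SD, n = 12, exact permutation adjusted p = 0.0299). Sst-like nuclei were lower than Vip-like nuclei by 0.47 ± 0.31 (log2, SD, n = 12, exact permutation adjusted p = 0.00977). CA pyramidal-like nuclei, chosen on hippocampal markers, at 4858 ± 929.7 CPM (SD, n = 12), were the highest excitatory class. The 5 cortical excitatory classes lay between 1279 CPM in L6 CT-like and 2436 in L4/5 IT-like nuclei. No step between neighbours among them passed the test. Classes further apart were not compared, although L2/3 IT-like nuclei were at 1818 to 2342 CPM and L6 CT-like nuclei at 1161 to 1434.

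Cntnap4 was at 928 to 1296 CPM in Pvalb-like nuclei (median 1187), which were the highest class in 12 of 12 animals, and at 273 to 596 in Sst-like nuclei (median 424). The log2 difference was 1.44 ± 0.37 (SD, n = 12, exact permutation adjusted p = 0.00977). Excitatory classes were far apart for this gene. L6 CT-like nuclei had 327 to 489 CPM (median 426), and the step to them from Sst-like nuclei did not pass, while L2/3 IT-like nuclei had 8.96 to 32.3 (median 14.8). Striatal projection-like nuclei were as low, with 20.3 ± 13.2 CPM (SD, n = 12).

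Over the means of the 15 classes, which share libraries, Cntnap5a correlated with Cntnap5b by r = 0.78 and with Cntnap5c by r = 0.67, and Cntnap5b with Cntnap5c by r = 0.37. Cntnap5c was at 703 to 1081 CPM in Pvalb-like nuclei (median 877), at 381 to 789 in Sst-like nuclei (median 492) and at 196 to 627 in Vip-like nuclei (median 352), and both steps passed (exact permutation adjusted p = 0.00977 and 0.0488). L5 NP-like and L6 CT-like nuclei held only 18.04 ± 12.2 and 24.0 ± 8.79 CPM (SD, n = 12). Cntnap5a was also led by Pvalb-like nuclei, at 1197 to 1539 CPM (median 1289), followed by Sst-like nuclei at 853 to 1227 (median 996; log2 difference 0.36 ± 0.21 SD, n = 12, exact permutation adjusted p = 0.0124). Unlike Cntnap5c, it was at 437 CPM in L2/3 IT-like, 730 in L4/5 IT-like and 421 in L5 NP-like nuclei, and at only 66.0 ± 49.9 (SD, n = 12) in Lamp5-like nuclei. For Cntnap5b none of its 14 neighbouring steps passed, and without the microglial-marker class 1 did, from L6 CT-like to astrocyte-like nuclei (exact permutation adjusted p = 0.0488). It was at 188 to 423 CPM in L5 NP-like nuclei (median 239) and at 85.1 to 321 in striatal projection-like nuclei (median 229), and its lowest neuronal level was 27.8 ± 34.2 CPM (SD, n = 12) in Lamp5-like nuclei.

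L6 CT-like nuclei, the most numerous narrow class with 4256 nuclei, had the lowest neuronal mean of Cntn3, Cntn5, Cntn6 and Cntnap2, and means of 72.3, 69.9 and 24.0 CPM for Cntnap5a, Cntnap5b and Cntnap5c, but the highest excitatory mean of Cntnap4. Lamp5-like nuclei had the lowest neuronal mean of Cntn1, Cntn4, Cntnap5a and Cntnap5b and the highest mean of Cntn5. Over the 15 class means, on the log2(CPM + 5) scale, Cntn5 and Cntnap2 were the most alike pair of the 10 genes (Pearson r = 0.93), followed by Cntnap2 and Cntnap5c (r = 0.87) and Cntn4 and Cntnap5b (r = 0.85). The least alike were Cntn1 and Cntn5 (r = -0.39). These 15 points share animals and libraries, and the microglial-marker class is among them, so the values describe these classes only.

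Among all genes with a mean of at least 10 CPM over the classes, the 3 most like Cntnap2 were Gm43879 (r = 0.98), Gm43874 (r = 0.97) and Gm43885 (r = 0.96), which all lie inside the span of Cntnap2 on its strand. For Cntnap5c they were Kcnc2 (r = 0.94), a potassium channel gene of fast-spiking interneurons, Gm43885 and 6330419E04Rik (r = 0.91 each), of which the last 2 also lie inside Cntnap2. Cntn5 was most like Cntnap2, then Robo2 (r = 0.92), an axon guidance receptor, and Hrh3 (r = 0.92), a histamine receptor. For Cntn4 the 3 were Iglon5 (r = 0.91), Lrrtm4 and Gm9801 (r = 0.89 each), and for Cntn6 they were Ank1 (r = 0.87), Kif26b (r = 0.87) and Kcnip1 (r = 0.86). Cntnap4 was nearest to Syngr1, Ndufb5 and Mast2 (r = 0.87 to 0.89), Cntnap5a to Sptb, Camta1 and Gm43175 (r = 0.88 to 0.91), and Cntnap5b to Syndig1, Csmd1 and Dip2c (r = 0.86 to 0.87). Cntn1 was nearest to Tnk2 at 0.86, Clgn at 0.77 and Mfsd6 at 0.75, and Cntn3 was nearest to Gm49969, Tmem178b and Chfr (r = 0.79 to 0.81).

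Glial levels were read against 5 transcripts of neurons (Rbfox3, Syt1, Snap25, Stmn2 and Grin1), since neuronal UMIs were found in glial classes. Whether they came from free RNA or from mixed or misplaced nuclei was not tested. In oligodendrocyte-like nuclei those 5 stood at 3.95% to 9.03% of their mean level in excitatory-like and inhibitory-like nuclei, and 8 of the 10 genes, at 2.86% to 6.97%, were within or below that range. The exceptions were Cntn1, at 635 to 888 CPM (median 738, mean 124% of neurons), and Cntn3, at 328 to 481 CPM (median 393, mean 92.5% of neurons). In OPC-like nuclei the neuronal transcripts stood at 6.96% to 27.1%. There, 4 of the 10 genes were above the neuronal mean: Cntn1 at 1166 to 1676 CPM (median 1387, 229.8%), Cntn6 at 278 to 579.6 CPM (median 408, 200.3%), Cntnap5b at 87.1 to 398 CPM (median 178, 122%) and Cntn4 at 910.3 to 1556 CPM (median 1302, 119%). The other 6 stood at 10.2% to 15.5%. OPC-like nuclei were the highest class for Cntn1 in 12 of 12 animals, above Sst-like nuclei by 0.84 ± 0.28 (log2, SD, n = 12, exact permutation adjusted p = 0.00977).

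In astrocyte-like nuclei, where the neuronal transcripts were at 10.5% to 18.6%, only Cntn1 was clearly above that range, at 308 ± 122 CPM (SD, n = 10) or 51.1% of neurons. Cntn6 at 23.2% and Cntnap5b at 21.7% were just above it, with 0 CPM in at least 1 animal each. The microglial-marker class had 9 of the 10 genes at 50.2% to 91.0% of the neuronal mean and Cntnap5c at 24.2%, which is below all 5 neuronal transcripts there, and its values are not read as microglial.

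**Figure D3:**
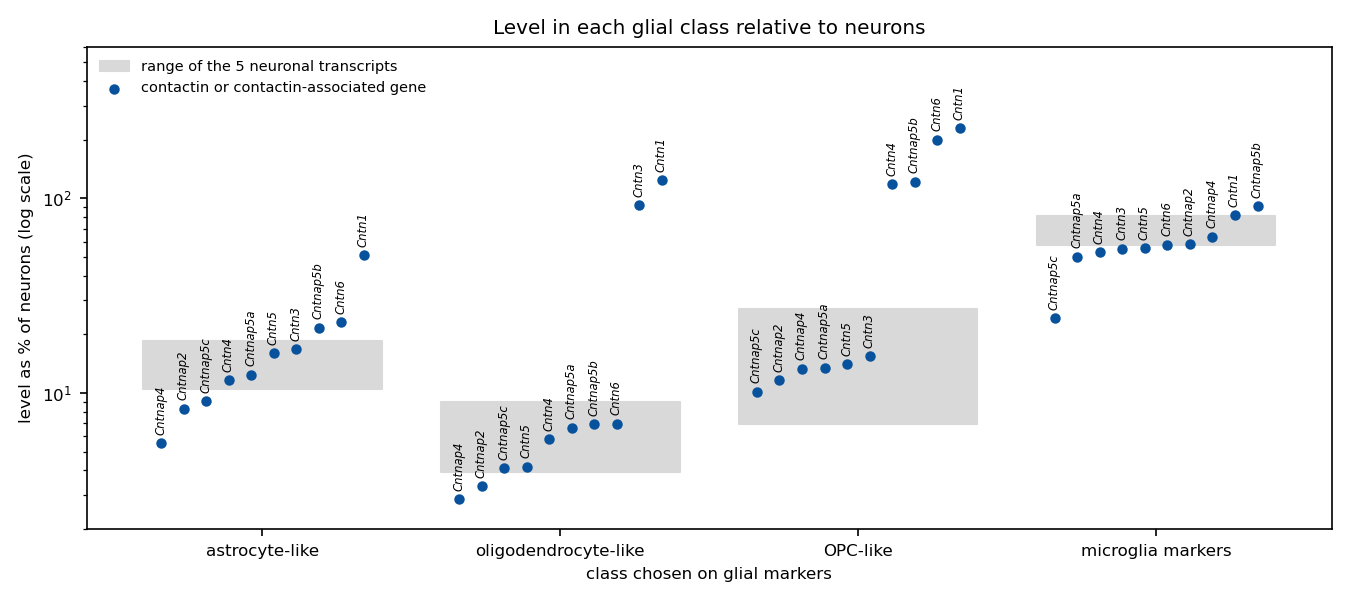
Level of each of the 10 genes in the 4 classes chosen on glial markers, as a percentage of the mean of excitatory-like and inhibitory-like nuclei (log scale). The grey box gives the range of the 5 neuronal transcripts in that class, and the microglial-marker class is not read as microglia. Cntn1 and Cntn3 lie above the box in oligodendrocyte-like nuclei, and Cntn1, Cntn6, Cntnap5b and Cntn4 in OPC-like nuclei.

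To ask whether MYT1L haploinsufficiency moved these genes, Het was compared with WT in each class on counts summed per animal (edgeR quasi-likelihood test, adjusted over all genes of the class by Benjamini-Hochberg, where a gene was called if its adjusted p was under 0.05 and its log2 change exceeded 0.2 in size). None of the 10 genes was called in any of the 18 comparisons, which were all nuclei, the 2 broad classes and the 15 narrower ones. Of 180 gene and class pairs, 154 passed the filter on low counts, 0 were called, and 21 had an unadjusted p under 0.05, 20 of them lower and 1 higher in Het. That is 13.6% of the 154 pairs, against 6.63% of all gene and class pairs. The pairs share nuclei and animals, so they are not independent. In the 15 narrower classes alone, 14 of 124 pairs had an unadjusted p under 0.05. Among all genes that share ran from 2.73% in astrocyte-like to 10.3% in L6 CT-like nuclei. DESeq2 called 2 of the 10 genes' pairs, Cntnap5c over all nuclei, where it called 0.18% of all genes, and Cntnap2 in oligodendrocyte-like nuclei, where it called 0.181%. Among all genes the share called by edgeR was 0.139% in excitatory-like, 0.121% in inhibitory-like, 0.631% in L6 CT-like, 0.0301% in L2/3 IT-like, 0.178% in L4/5 IT-like, 0.259% in L6 IT-like and 0.0638% in Vip-like nuclei, and 0% in the other 11 comparisons with all nuclei among them.

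In the pooled comparisons most of the genes were lower in Het. Over all nuclei 9 of the 10 genes were lower in Het, with a median log2 fold change of -0.13, while 50.8% of all genes were lower. In excitatory-like nuclei 9 of 10 were lower (median -0.12, against 51.6% of all genes), and in inhibitory-like nuclei 9 of 10 (median -0.14, against 52.8%). These 3 comparisons share nuclei and do not count as separate evidence. The narrower classes varied. In L2/3 IT-like nuclei 9 of 10 were lower and in Pvalb-like nuclei 9 of 10, whereas L6 IT-like nuclei had 1 of 7 lower (median 0.12), the microglial-marker class 2 of 8 (median 0.18), striatal projection-like nuclei 4 of 9 and Sst-like nuclei 5 of 10. Of the 154 pairs, 109 were lower in Het. Among all genes the share lower in Het ran from 48.5% in L6 IT-like to 52.8% in inhibitory-like nuclei. It was 52.3% in L2/3 IT-like and 49.1% in Pvalb-like nuclei. Unadjusted p-values under 0.05 were held by 4 of the 10 genes over all nuclei, against 5.97% of all genes, by 2 in excitatory-like nuclei, against 8.02%, and by 1 in inhibitory-like nuclei, against 5.55%. Genotypes overlapped for every one of the 10 genes in these 3 comparisons, whereas 0.511%, 0.579% and 0.467% of all genes did not overlap.

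**Figure D4:**
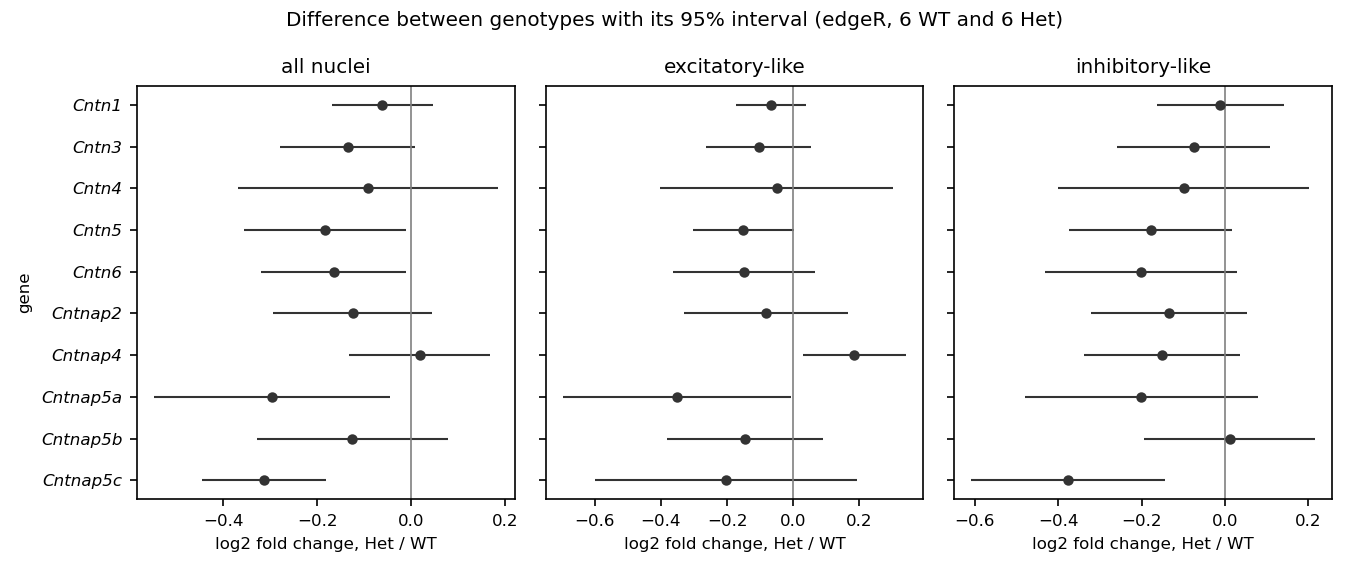
Log2 fold change of Het over WT of each of the 10 genes with its 95% interval, over all nuclei and in excitatory-like and inhibitory-like nuclei (edgeR, 6 WT and 6 Het animals). Most points lie left of 0, and Cntnap5c over all nuclei (-0.31) has the interval farthest from 0.

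Cntnap5c had the smallest p of the 154 pairs. Over all nuclei it was at 169 to 212 CPM in WT (median 204) and at 155 to 178 in Het (median 159). All 6 Het animals were below the WT median, and only the tops and bottoms of the ranges overlapped. The log2 fold change was -0.31 ± 0.06 (SE; 95% interval -0.45 to -0.18; edgeR adjusted p = 0.177). DESeq2 called it with the same size (-0.31, adjusted p = 0.00406). Of the 12 fits that left out 1 animal, edgeR called it only without WT male 2 (-0.36). In inhibitory-like nuclei it was at 440 to 728 CPM in WT (median 567) and at 388 to 512 in Het (median 458), a log2 fold change of -0.38 ± 0.11 (SE; edgeR adjusted p = 0.392).

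By class, Cntnap5c was at 857 to 1081 CPM in WT (median 937) and at 703 to 899 in Het (median 803) in Pvalb-like nuclei, where its log2 fold change was -0.29 ± 0.09 (SE; edgeR adjusted p = 0.815). With no upper limits on UMIs and genes it was -0.46 there and was called (edgeR adjusted p = 0.00161). The share of all genes called in that fit is not given here, so the call has no background beside it. In Vip-like nuclei it was -0.46 ± 0.19 (SE; edgeR adjusted p = 0.764). Leaving out 1 animal gave -0.57 to -0.28 in Vip-like nuclei, with -0.28 without WT female 2. Sst-like nuclei did not show it, with medians of 489 CPM in WT and 492 in Het and a log2 fold change of 0.00 ± 0.15 (SE), and Lamp5-like nuclei had 0.34 ± 0.40 (SE), with intervals that hold both signs. Whether the classes differ in this response was not tested. The striatal projection class, which is low in Cntnap5c (154 CPM), made up 6.94% to 13.0% of inhibitory-like nuclei in WT animals (median 7.54%) and 9.25% to 19.2% in Het animals (median 17.2%). Pvalb-like nuclei, the leading class of Cntnap5c, made up 6.39% to 19.7% in WT (median 13.7%) and 8.72% to 14.4% in Het (median 11.3%), and the part of that share in the pooled value was not tested. Without the striatal projection class the inhibitory-like value was -0.31 (edgeR adjusted p = 1.00), a check chosen after seeing the data.

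**Figure D5:**
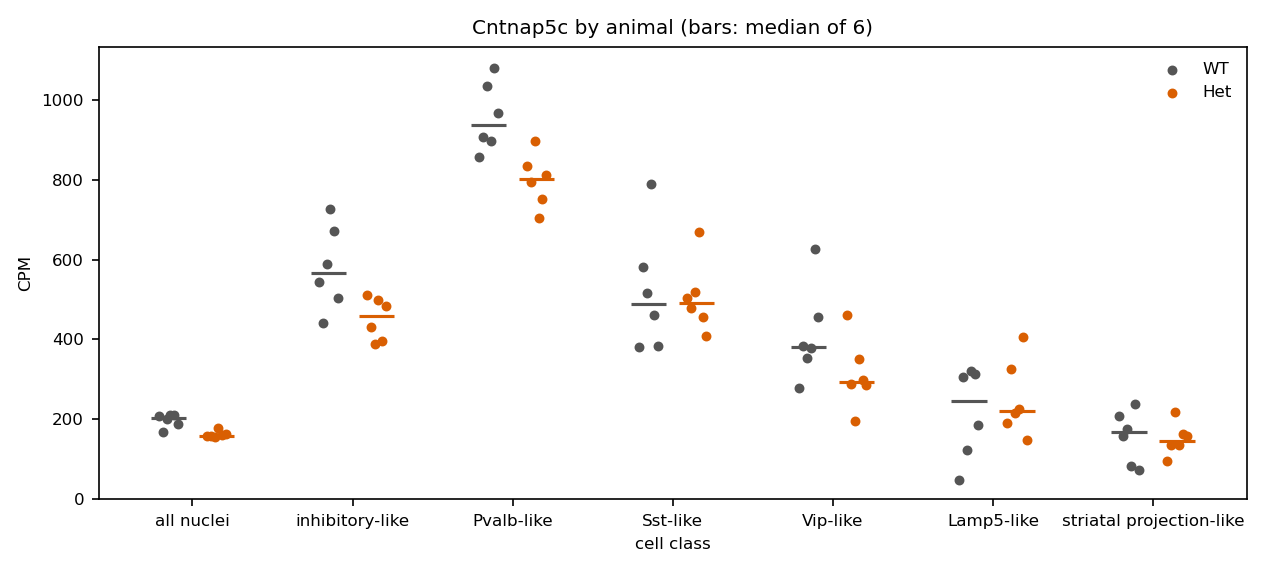
CPM of Cntnap5c in each animal, WT (grey) and Het (orange), over all nuclei and in 6 inhibitory classes, with a bar at the median of 6 animals. Het animals lie mostly below WT animals over all nuclei, in inhibitory-like and in Pvalb-like nuclei, and the genotypes are mixed in Sst-like nuclei.

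Cntn6 was also lower in Lamp5-like and Pvalb-like nuclei, without a call, and these were its largest decreases among the 5 inhibitory classes. Its log2 fold change was -0.07 ± 0.16 (SE) in Sst-like, 0.05 ± 0.14 (SE) in Vip-like and 0.49 ± 0.28 (SE) in striatal projection-like nuclei. In Lamp5-like nuclei it was at 138 to 454 CPM in WT (median 275) and at 115 to 194 in Het (median 152), and 6 of 6 Het animals were below the WT median (log2 fold change -0.81 ± 0.21 SE, 95% interval -1.25 to -0.37, edgeR adjusted p = 0.279). In Pvalb-like nuclei it was at 426 to 773 CPM in WT (median 659) and at 377 to 531 in Het (median 485), again with 6 of 6 Het animals below the WT median (log2 fold change -0.42 ± 0.12 SE, edgeR adjusted p = 0.607). Of the 12 fits that left out 1 animal, only 1 in each class turned this into a call. These were without WT male 2 in Lamp5-like nuclei (-0.94) and without WT female 2 in Pvalb-like nuclei (-0.52). The share of all genes called in those fits is not given here. The animal left out had the lowest WT value in that class (138 and 426 CPM), so leaving it out widens the difference. In the leading class, L5 NP-like nuclei, its log2 fold change was only -0.09 (edgeR adjusted p = 0.991).

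Cntn5 in Lamp5-like nuclei, its leading class, was at 4706 to 5522 CPM in WT (median 5083) and at 3685 to 4709 in Het (median 4419), so the ranges met at their ends (log2 fold change -0.26 ± 0.09 SE, edgeR adjusted p = 0.643). Cntnap5a was lower by 0.35 ± 0.16 (log2, SE) in excitatory-like nuclei, with medians of 405 CPM in WT and 327 in Het (edgeR adjusted p = 0.605). It was lower in Het in 11 of the 13 narrower classes tested. In the excitatory ones its log2 fold change was -0.48 in L4/5 IT-like, -0.22 in CA pyramidal-like and -0.16 in L2/3 IT-like nuclei. It was -0.04 in L6 CT-like, -0.03 in L5 NP-like and 0.01 in L6 IT-like nuclei. Cntnap4 was the single gene higher in excitatory-like nuclei, by 0.19 ± 0.08 (SE), with 120 to 171 CPM in WT and 146 to 190 in Het (edgeR adjusted p = 0.507), and 6 of 6 Het animals were above the WT median. By class it was 0.65 in CA pyramidal-like, 0.57 in L4/5 IT-like, 0.25 in L6 IT-like and 0.13 in L6 CT-like nuclei. It was -0.07 in L5 NP-like and -0.38 in L2/3 IT-like nuclei. L6 CT-like nuclei, highest in Cntnap4 of the excitatory classes, were 1792 of 8263 excitatory-like nuclei in WT and 2464 of 10428 in Het. These counts are pooled over the animals of a genotype, so they show no spread between animals. The part of the class mix in the pooled values of Cntnap5a and Cntnap4 was not tested. Cntn3 was lower by 0.48 ± 0.18 (SE) in CA pyramidal-like nuclei and by 0.36 ± 0.13 (SE) in striatal projection-like nuclei (edgeR adjusted p = 0.589 and 0.98).

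Cntnap2 was at 2667 to 3490 CPM in WT and at 2711 to 3046 in Het over all nuclei (log2 fold change -0.12 ± 0.08 SE, 95% interval -0.29 to 0.05). Leaving out 1 animal gave -0.17 (without WT male 2) to -0.08 (without WT male 1). In its leading class, Pvalb-like nuclei, its log2 fold change was -0.10 (edgeR adjusted p = 0.955). Its largest difference with an unadjusted p under 0.05 was in oligodendrocyte-like nuclei, where at 3.33% of neurons its level is below that of all 5 neuronal transcripts: 96.4 to 450 CPM in WT (median 161) and 65.4 to 96.9 in Het (median 78.4; log2 fold change -1.25 ± 0.33 SE, edgeR adjusted p = 0.5). DESeq2 called this difference (adjusted p = 0.00871). It was -0.36 without doublet removal, and -0.89 without WT female 3. The summed level of the 5 neuronal transcripts in these nuclei moved the same way, from 158 to 871 CPM in WT (median 253) to 100 to 204 in Het (median 159). Its part in the result was not tested. In OPC-like nuclei, where Cntnap2 was at 11.6% of neurons, the log2 fold change was -1.57 and was not called, and with the replicate block it was -1.77 and called (edgeR adjusted p = 5.48e-05). The same 5 transcripts were at 405 to 1924 CPM in WT (median 582) and at 264 to 448 in Het (median 364) there, and their part was not tested either.

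A list of 21 genes that pair with or act beside these proteins was read in the same fits. It holds Cntn2 and Cntnap1 of the axonal complexes, the L1 family and its anchors (L1cam, Nfasc, Nrcam, Chl1, Ank3, Epb41l3), the receptor phosphatases Ptprz1 and Ptprg, and potassium channel genes such as Kcna1 and Kcna2. Of 268 gene and class pairs tested, 1 was called, in L6 CT-like nuclei, where 0.631% of all genes were called. Nrcam, a cell adhesion molecule that joins the complexes at the node, fell in L6 CT-like nuclei from 671 to 849 CPM in WT (median 823) to 617 to 746 in Het (median 675), and 6 of 6 Het animals were below the WT median (log2 fold change -0.27 ± 0.07 SE, 95% interval -0.41 to -0.14, edgeR adjusted p = 0.0418). This call was lost when any of 10 of the 12 animals was left out, all but WT female 1 and Het female 3, with log2 fold changes of -0.31 to -0.25. Over all nuclei 9 of the 21 were lower in Het and none was called.

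The genotype difference was also compared between the sexes. Of 154 gene and class pairs, 0 had a sex by genotype interaction that was called, where 0.0147% of all genes were called in excitatory-like, 0.0301% in L2/3 IT-like and 0.0577% in Pvalb-like nuclei and 0% in the other classes, and 9 had an unadjusted p under 0.05 (edgeR, smallest adjusted p = 0.363). These 9 are 5.84% of the pairs, near the 4.57% of all gene and class pairs. On simulated counts the genotype test recovered 54.6% of changes of 0.5 (log2) and 94.9% of changes of 1 in excitatory-like nuclei, and 43.3% and 94.3% in inhibitory-like nuclei, with 7 and 5 false calls. In L6 CT-like nuclei it recovered 51.6% and 95.7%, with 9 false calls. So differences of the sizes seen here could be missed.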

How the data were processed

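The authors deposited expected counts, as matrices of UMIs per gene and nucleus that were not normalized, made by the ScaleRna pipeline on mm10. Some entries are fractions, and how they arose is not given in the sources used here. The submitters' notes name Seurat 4.3.0 and DESeq2 1.38.3. Nuclei were kept here with 800 to 6000 UMIs, 300 to 3000 detected genes, no more than 1% of UMIs from mitochondria and log genes over log UMIs not under 0.9, and the 5% with the highest doublet scores (scanpy 1.11.5) were removed. Classes came from a negative binomial mixture over marker UMIs (posterior over 0.9), set with marker levels in view. Counts were summed per animal and class (at least 10 nuclei), rounded, and tested by edgeR 4.0.16 (R 4.3.3, TMM, genotype only). CPM of those sums, plus 5 on the log2 scale, entered the exact paired sign-flip tests (numpy 2.4.6), adjusted over all genes tested rather than over the 10 genes as first planned, or over all neighbouring pairs. The 3 most like genes were taken by Pearson correlation over class means. DESeq2 1.42.0, other filters, limits and marker rules, sex, a replicate block and leaving out each animal were alternatives. The genes and lists were chosen with earlier results of these data known. The genotype test was tested on simulated data.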

Additional observations from a re-analysis of the deposited data

Results flagged for a closer look

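Among 94 groups of animals tested for a value far from the others, 3 had one, and chance gives about 1 in 20. In Pvalb-like nuclei, WT female 2 had 1087 CPM of Cntn4, while the nearest of the other WT animals had 1657. In astrocyte-like nuclei, Het female 1 had 347 CPM of Cntn5, against 127 in the nearest Het animal. Over all nuclei, Het female 1 had 927 CPM of Myt1l, against 983 in the nearest Het animal.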

How the results depend on the processing

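Of the genotype comparisons with 0 of the 10 genes called, some gave 1 under an alternative: Cntnap5c over all nuclei (DESeq2, no filter on low counts), in inhibitory-like nuclei (no filter) and in Pvalb-like nuclei (no upper limits), and Cntnap2 in oligodendrocyte-like nuclei (DESeq2, no filter) and in OPC-like nuclei (replicate block). The data do not show that the replicate numbers pair animals: same-numbered animals correlated in their deviations by r = -0.61 to 0.13 over all nuclei (1 of 6 pairs over 0.1), -0.27 to 0.23 in excitatory-like (3 of 6) and -0.53 to 0.30 in inhibitory-like nuclei (1 of 6). Under the replicate block 12 genes were called in excitatory-like and 0 in inhibitory-like nuclei, while calls rose from 53 to 63 in L6 CT-like, from 0 to 12 in oligodendrocyte-like and from 0 to 3 in OPC-like nuclei. All genes called numbered 0 over all nuclei (DESeq2 30, no filter 28, no upper limits 4), 19 in excitatory-like nuclei (70, 153 and 40), 13 in inhibitory-like nuclei (28, 72 and 4, with 4 without doublet removal and 2 under the stricter marker rule) and 53 in L6 CT-like nuclei (no filter 105, no upper limits 92, stricter rule 24). Leaving out 1 animal gave 0 to 4, 5 to 37, 0 to 25 and 10 to 83 genes in these classes, and 0 to 1 of the 10 genes over all nuclei, in Pvalb-like and in Lamp5-like nuclei. Directions turned for small differences between genotypes. Cntn1 in inhibitory-like nuclei was 0.016 with no filter and 0.061 under the stricter rule (-0.032 to 0.029 leaving out 1 animal), and Cntnap5b there was -0.12 without upper limits and -0.063 without the striatal class (-0.049 to 0.062). Leaving out 1 animal, Cntn4 ranged from -0.16 to 0.0037 over all nuclei and from -0.14 to 0.051 in excitatory-like nuclei, Cntnap4 from -0.024 to 0.068 over all nuclei and Cntnap2 from -0.15 to 0.0016 in excitatory-like nuclei. Without upper limits 72 in place of 21 neighbouring pairs passed. The log2 difference of Cntn3, inhibitory-like minus excitatory-like, was then -0.10 in place of -0.06. The differences Cntn3, log2 L6 CT minus astrocyte (-0.82) and Cntn4, log2 Lamp5 minus astrocyte (-0.19) turned. The cause was not tested. Of the values under alternatives other than leaving out an animal, 604 kept their direction and their side of the threshold (counts, within 1.5 times), 24 moved beyond that, 16 lost the threshold, 7 gained it and 6 reversed. Leaving out an animal, the numbers were 871, 28, 10, 3 and 16.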

Other observations

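Several sets held too few nuclei for a comparison. Sets of 77 and 18 nuclei, chosen on markers of dentate granule cells and of L6b neurons, held more UMIs of another list (medians 5 and 8) than of their own (4 and 6), so they are not named as types and no level is given. In 22 L5 ET-like nuclei Cntnap5a was at 905 CPM (95% exact Poisson interval 718 to 1126, which covers counting error only).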
